A study of Mus musculus with 10 samples.

Results

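The genes described here are 10 markers of oligodendrocyte precursor cells and of the committed precursors that follow them: Pdgfra, Cspg4, C1ql1, Lhfpl3, Olig1, Olig2, Gpr17, Neu4, Bcas1 and Enpp6. They were picked by symbol, each symbol matched 1 of the 52636 genes in the table, and all 10 passed the filter on low counts. RNA came from S1BF, the whisker barrel field of somatosensory cortex, of C57BL/6 mice at postnatal day 17. In the cKO group (n = 4 libraries) a floxed allele of Rxra, the gene of retinoid X receptor alpha, was deleted by Nex-cre, and the Hetero group (n = 2) was the conditional heterozygote with the same Cre. The Loxp group (n = 4) carried the floxed allele (Rxratm1Krc/J) without Cre. Nex-cre is a Cre inserted at Neurod6, and it acts mainly in excitatory neurons of the cortex, so that the deletion is aimed at neurons while these 10 genes mark another lineage. Whether the libraries came from separate animals is not stated in the labels, and p-values below measure the spread between these samples.

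Oligodendrocyte precursors divide in the postnatal cortex under the control of platelet-derived growth factor, which acts through the receptor that Pdgfra encodes. Some of them leave the cell cycle, pass through a short committed stage in which Gpr17, Bcas1 and Enpp6 are high, and mature into myelinating oligodendrocytes, which switch on Mbp and Mog. The transcription factors Olig1 and Olig2 are present through the whole lineage. In the third postnatal week of the mouse, precursors, committed cells and myelinating cells are all present in the cortex. Retinoid X receptors pair with other nuclear receptors and bind repeats of the letters AGGTCA. In bulk tissue, fewer cells of a type and less RNA per cell cannot be told apart.

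Total counts ranged from 19332990 to 26086337 per library, and 2.80% to 3.68% of counts fell on mitochondrial genes. Markers of excitatory cortical neurons were present throughout, with summed levels of 3286 to 3539 CPM (counts brought to the same TMM-scaled total) in cKO, 3380 to 3557 CPM in Hetero and 2967 to 3510 CPM in Loxp. Rxra as a whole gene was at 29.0 to 32.3 CPM in cKO, 23.2 to 26.4 CPM in Hetero and 21.6 to 31.8 CPM in Loxp, and gene counts would include transcripts that lack the floxed part. Neurod6 was at 22.9 to 38.1 CPM in cKO, 34.0 to 34.4 CPM in Hetero and 34.9 to 66.7 CPM in Loxp. Its Loxp minimum came from the library labelled Loxp 4, inside the range of the Cre groups. The library with most extreme values was cKO 2, which held the highest value of 20% and the lowest value of 19.2% of the 18455 genes tested. Loxp 1 came next with 16.4% and 15.2%, and then Loxp 2 with 12.6% and 13.7%. In Hetero 2 the choroid plexus markers summed to 742 CPM, against 7.76 CPM in Hetero 1, 3.76 to 23.3 CPM in cKO and 3.43 to 7.63 CPM in Loxp. Striatal markers summed to 241 to 921 CPM in cKO, 473 to 605 CPM in Hetero and 260 to 1046 CPM in Loxp.

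Start regions of the genes were read from RefSeq (GRCm38.p6), whose table held 6 of the 10: Pdgfra, Cspg4, Lhfpl3, Olig2, Neu4 and Enpp6. The 250 bases before each RefSeq start were searched on both strands for 6 sets of letters. These were AGGTCA and its direct repeat with 1 base between (DR1) for nuclear receptors, CAGCTG and CATATG for factors of the Olig type, and ACAAAG and ACAATG for SOX factors. Of 32851 RefSeq windows of the same length, 14.0% held AGGTCA, 0.0335% DR1, 13.0% CAGCTG, 3.46% CATATG, 16.5% ACAAAG and 10.7% ACAATG. No motif was found in all 6 windows. AGGTCA and CAGCTG were found for Lhfpl3 only, ACAATG for Enpp6 and Olig2, and the other letters for none of the 6. The windows of Cspg4, Neu4 and Olig2 ran past the gene start in GENCODE M21, so part of each lay inside the gene. The Olig2 window ended at 91225549, past the gene start at 91225457, and its ACAATG lay inside the gene. For Pdgfra, 0 transcripts held the bases that follow the window, so its start site is less certain. DR1 contains AGGTCA itself, and CAGCTG and CATATG read the same on both strands. The windows of Pdgfra (chr5:75152001-75152250, plus strand), which held no match, Lhfpl3 (chr5:22745804-22746053, plus strand) and Enpp6 (chr8:46986637-46986886, plus strand) are printed 5′ to 3′ as examples without a match, with a nuclear receptor match and with a SOX match, with matches in capitals; TGACCT is AGGTCA on the other strand.
Pdgfra: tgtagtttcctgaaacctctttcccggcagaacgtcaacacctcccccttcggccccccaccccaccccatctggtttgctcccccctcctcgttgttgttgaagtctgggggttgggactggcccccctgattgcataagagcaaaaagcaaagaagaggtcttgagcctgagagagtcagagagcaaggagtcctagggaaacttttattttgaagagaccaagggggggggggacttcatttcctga
Lhfpl3: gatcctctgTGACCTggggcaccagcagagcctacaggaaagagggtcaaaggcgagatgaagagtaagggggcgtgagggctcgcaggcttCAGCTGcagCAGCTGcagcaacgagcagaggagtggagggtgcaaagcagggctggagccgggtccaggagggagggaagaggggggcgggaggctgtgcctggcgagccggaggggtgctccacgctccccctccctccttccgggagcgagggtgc
Enpp6: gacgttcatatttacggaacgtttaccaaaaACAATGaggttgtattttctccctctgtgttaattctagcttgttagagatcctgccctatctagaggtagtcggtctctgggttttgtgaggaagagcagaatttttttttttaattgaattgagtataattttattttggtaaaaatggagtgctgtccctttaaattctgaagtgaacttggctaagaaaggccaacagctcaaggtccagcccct

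Between genes, levels can be compared only per length, as the deposited FPKM (fragments scaled to gene length and library total). Olig1 was the most abundant of the 10 with 83.3 ± 15.5 FPKM in cKO (SD, n = 4), 76.0 ± 7.24 FPKM in Hetero (SD, n = 2) and 87.7 ± 3.81 FPKM in Loxp (SD, n = 4). By the Loxp mean, Bcas1 (31.3 FPKM) and Gpr17 (29.1 FPKM) followed, and their Loxp libraries overlapped, so their order is not resolved. Olig2 (19.3 FPKM), C1ql1 (9.13 FPKM) and Pdgfra (6.19 FPKM) came next, each clear of its neighbours in every Loxp library. Lhfpl3 (5.03 FPKM), Neu4 (4.01 FPKM), Enpp6 (3.74 FPKM) and Cspg4 (2.63 FPKM) were lowest, and each overlapped the next. The values below are CPM, which compare a gene between libraries.

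No gene of the 10 differed between genotypes beyond the spread between libraries, and the widest departure was a single library. In cKO 2 all 10 genes had their highest value of the 10 libraries, where 20% of all genes tested did. In cKO 2, 6 of the 10 stood more than 1.2 times above the highest of the other 9 libraries, against 6.17% of all genes. The genes were chosen with earlier results of these data known, so the count describes the library and is no test.

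**Figure D1:**
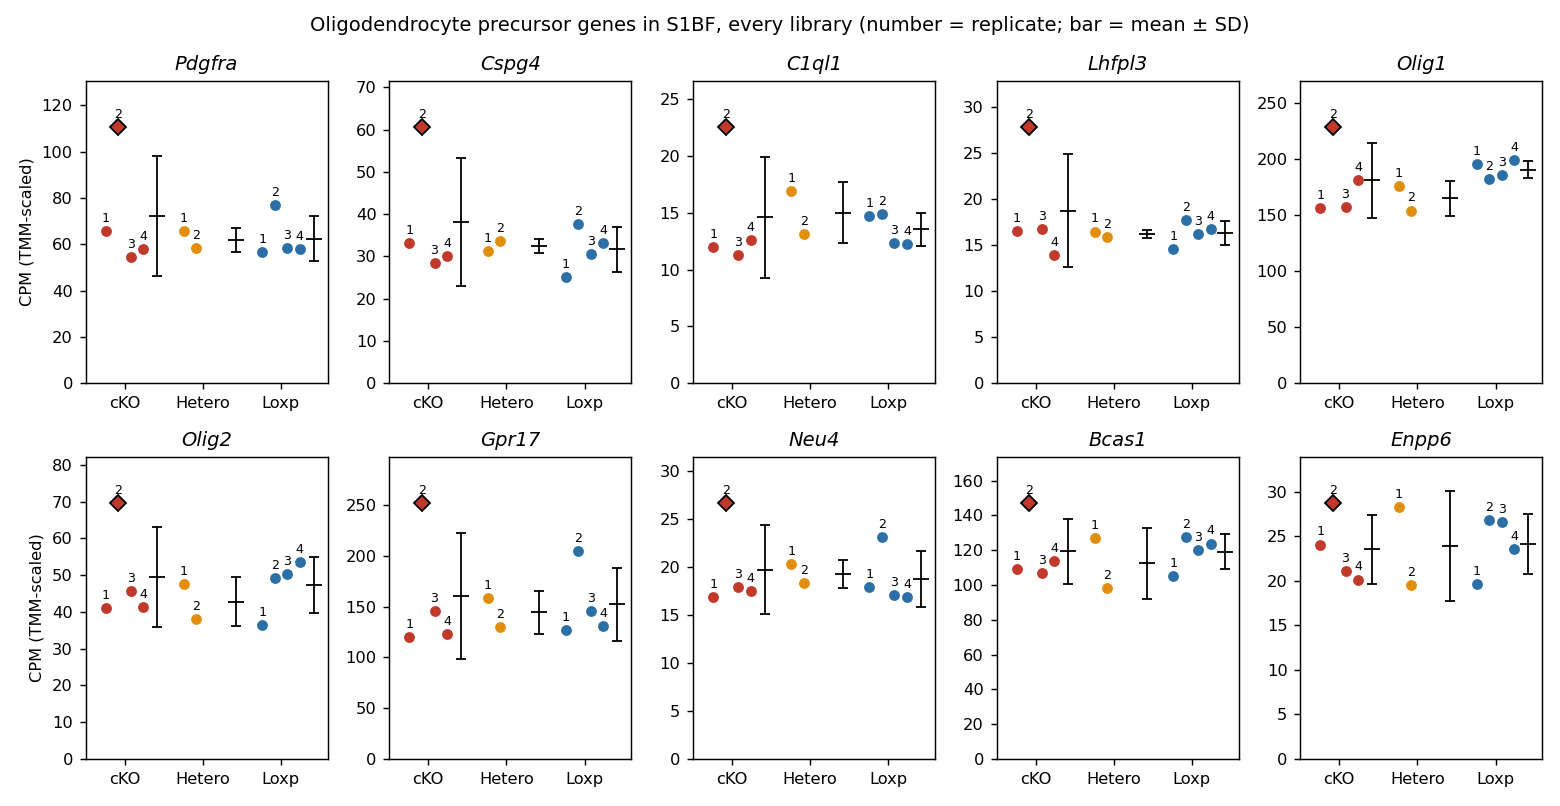
CPM of each of the 10 genes (vertical axis, counts on TMM-scaled library totals, from 0) in every cKO, Hetero and Loxp library, with the replicate number above each point and the group mean ± SD beside it. The diamond is cKO 2, which is the highest point in all 10 panels, while the other 3 cKO libraries lie among or below the Loxp points.

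Among the genes of the precursor stage, Pdgfra (ENSMUSG00000029231, chromosome 5, 75152292 to 75198215, GENCODE M21 on GRCm38) encodes the receptor through which precursors receive their growth factor. Its CPM were 65.7, 111, 54.7 and 57.9 in cKO 1 to 4, 65.6 and 58.3 in Hetero, and 56.9, 76.9, 58.3 and 57.8 in Loxp 1 to 4. Only cKO 2 lay above the highest Loxp library, and the groups overlapped. The means were 72.2 ± 26.0 CPM in cKO and 62.5 ± 9.65 CPM in Loxp (SD, n = 4 each). The log2 fold change of Pdgfra in cKO against Loxp was 0.21 (SE 0.190, edgeR adjusted p = 1), and it was −0.07 (SE 0.112) without cKO 2.

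Cspg4 (ENSMUSG00000032911, chromosome 9, 56865033 to 56899870) encodes the NG2 proteoglycan on the precursor surface, which pericytes carry too. Its CPM were 33.1, 60.6, 28.4 and 30.1 in cKO, 31.2 and 33.6 in Hetero, and 25.1, 37.6, 30.6 and 33.2 in Loxp. It had the largest departure of the 10 in cKO 2, 1.61 times the highest other library, and the other 3 cKO libraries lay inside the Loxp range. The log2 fold change was 0.26 (SE 0.207, edgeR adjusted p = 1) with all libraries and −0.05 (SE 0.118) without cKO 2. The markers of mural cells, the group that includes pericytes, summed to 195 to 289 CPM in cKO, 247 to 248 CPM in Hetero and 202 to 309 CPM in Loxp. The highest of these sums in cKO came from cKO 2, where 7 of 9 tested mural genes were above the Loxp mean, and Rgs5, a pericyte gene, was at 129 CPM there, against 158 CPM in Loxp 2. The part of mural cells in the Cspg4 values was not tested.

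C1ql1 (ENSMUSG00000045532, chromosome 11, 102939264 to 102946688) encodes a secreted protein of the C1q family. Its CPM were 12.02, 22.5, 11.3 and 12.6 in cKO, 16.9 and 13.1 in Hetero, and 14.7, 14.9, 12.3 and 12.2 in Loxp. Here cKO 2 was the highest library, while cKO 1 and cKO 3 lay below every Loxp library. Lhfpl3 (ENSMUSG00000106379, chromosome 5, 22746059 to 23275597), a gene of the LHFPL membrane protein family, had 16.5, 27.8, 16.7 and 13.9 CPM in cKO, 16.4 and 15.8 CPM in Hetero, and 14.5, 17.7, 16.2 and 16.7 CPM in Loxp. Apart from cKO 2, the libraries of Lhfpl3 stayed within a narrow band of 13.9 to 17.7 CPM in all groups. The log2 fold changes in cKO against Loxp were 0.11 (SE 0.197) for C1ql1 and 0.20 (SE 0.175) for Lhfpl3, both with an edgeR adjusted p = 1. Without cKO 2 they were −0.17 (SE 0.124) and −0.05 (SE 0.105).

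Both lineage factors were highest in cKO 2. Olig1 (ENSMUSG00000046160, chromosome 16, 91269772 to 91271933), a basic helix-loop-helix factor needed for maturation, had CPM of 157, 229, 157 and 182 in cKO, 176 and 154 in Hetero, and 196, 183, 186 and 199 in Loxp. Every library with Cre other than cKO 2 lay below the lowest Loxp library, though cKO 4 only barely so, at 181.9 CPM against 182.7 CPM in Loxp 2. Its log2 fold change was −0.08 (SE 0.112, edgeR adjusted p = 1) in cKO against Loxp and −0.21 (SE 0.138, edgeR adjusted p = 1) in Hetero against Loxp. Both Hetero libraries being below all Loxp libraries was shared with 5.77% of all genes tested. Without cKO 2 the Olig1 change was −0.20 in cKO (SE 0.081, edgeR unadjusted p = 0.025, adjusted p = 1) and −0.20 in Hetero (SE 0.092), both set against the same Loxp libraries. In that fit 1 of the 10 genes, Olig1, was lower in cKO at an unadjusted p under 0.05, where 1.37% of all genes were. Olig1 was also the 1 gene of the 10 whose cKO libraries without cKO 2 all lay below Loxp, where 1.77% of all genes did. The library left out was the highest for Olig1, which lowers its cKO mean, so these shares of all genes are no like measure. Without the library labelled Loxp 4 the Olig1 change was −0.05 in cKO and −0.18 in Hetero.

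Olig2 (ENSMUSG00000039830, chromosome 16, 91225457 to 91228677), the factor that specifies the lineage, lies close to Olig1 on the same chromosome. Its CPM were 41.0, 69.7, 45.7 and 41.4 in cKO, 47.5 and 38.1 in Hetero, and 36.4, 49.1, 50.4 and 53.7 in Loxp. Its Loxp libraries spread more widely than those of Olig1, and its groups overlapped with or without cKO 2. The log2 fold change was 0.06 (SE 0.168, edgeR adjusted p = 1) in cKO against Loxp and −0.15 (SE 0.123) without cKO 2.

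Of the committed-stage genes, Gpr17 (ENSMUSG00000052229, chromosome 18, 31942997 to 31949636) encodes a G protein-coupled receptor that is lost before myelination. It varied most within groups, with CPM of 120, 252, 146 and 123 in cKO, 159 and 130 in Hetero, and 127, 205, 146 and 131 in Loxp. High values stood in cKO 2 and in Loxp 2, and the other 8 libraries lay between 120 and 159 CPM. The log2 fold change was 0.07 (SE 0.218, edgeR adjusted p = 1) in cKO against Loxp, −0.23 (SE 0.146) without cKO 2 and 0.25 without Loxp 2.

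Neu4 (ENSMUSG00000034000, chromosome 1, 94020451 to 94028334), which encodes a sialidase, had 16.8, 26.6, 17.9 and 17.5 CPM in cKO, 20.3 and 18.3 CPM in Hetero, and 17.9, 23.1, 17.0 and 16.9 CPM in Loxp. The same libraries, cKO 2 and Loxp 2, were the highest for Neu4. Bcas1 (ENSMUSG00000013523, chromosome 2, 170346991 to 170427845), which marks cells that are beginning to myelinate, had 109, 147, 107 and 114 CPM in cKO, 127 and 98.1 CPM in Hetero, and 105, 128, 120 and 124 CPM in Loxp. Enpp6 (ENSMUSG00000038173, chromosome 8, 46986887 to 47096762) encodes a choline phosphodiesterase of newly forming oligodendrocytes, and had 24.1, 28.8, 21.1 and 20.1 CPM in cKO, 28.2 and 19.6 CPM in Hetero, and 19.6, 26.8, 26.6 and 23.5 CPM in Loxp. Enpp6 had the smallest departure of the 10 in cKO 2, which was 1.02 times the highest other library, Hetero 1. The log2 fold changes in cKO against Loxp were 0.07 (SE 0.152) for Neu4, 0.0013 (SE 0.115) for Bcas1 and −0.04 (SE 0.146) for Enpp6, each with an edgeR adjusted p = 1. Without cKO 2 they were −0.10, −0.11 and −0.14.

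Exons of 5 of the 10 genes share bases with other genes, and whether counting used strand is not given in the sources used here, so these values carry that uncertainty. Gpr17 shares 3.62% of its exonic bases with Lims2 on the other strand, Olig1 7.26% with Gm15966, Lhfpl3 17.6% with A930003O13Rik, Bcas1 11.7% with Bcas1os1 and Pdgfra 4.55% with Gm42802. Against 4351 counts of Lims2 over the 10 libraries, Gpr17 had 35523. The other partners just named held 0 to 142 counts in all.

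Across the list, cKO against Loxp gave 8 of 10 genes with a fold change above 0, beside 50.1% of all genes, and a median log2 fold change of 0.07. The edgeR test called 0 of 10 (background 0.0% of 18455 genes), DESeq2 and limma-voom also called 0 of 10, and none was under an unadjusted p of 0.05, where 2.53% of all genes were. With no low-count filter 1 of the 10, Cspg4, was higher at an unadjusted p under 0.05 (edgeR unadjusted p = 0.031, adjusted p = 0.922), where 2.36% of all genes were. The cKO and Loxp libraries overlapped for all 10, and lacked overlap for 1.54% of all genes. The 95% interval of the fold change was narrowest for Olig1, at 0.803 to 1.12 times the Loxp level, and widest for Gpr17, at 0.760 to 1.46 times. Without cKO 2 all 10 genes had a fold change below 0, beside 50% of all genes, with a median of −0.13 and values of −0.23 to −0.05. Since cKO 2 was the highest library for all 10, leaving it out lowers the cKO mean of each. The genes behind the 50% were not picked in this way, so that share is no like measure and the count is no test. Without cKO 2, 0 of the 10 were called, and 0.00543% of all genes. The direction of the list in cKO thus rested on that library. Markers of some other cell types also lay below Loxp without cKO 2: by mean log2 CPM, cKO minus Loxp, 0 of 7 endothelial genes (median −0.21) and 2 of 9 mural genes (median −0.15) were above 0, beside 0 of the 10 genes (median −0.12) and 9309 of 18420 genes (median 0.0020). In the same comparison 8 of 9 fibroblast genes (median 0.07) and 8 of 8 striatal genes (median 0.32) were above 0. The part of these cell types in the values of the 10 genes was not tested. Without Loxp 1, 5 of 10 were above 0 (median 0.03). The authors' deposited table of cKO against Loxp, too, listed no member under an adjusted p of 0.05.

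In Hetero against Loxp, 3 of 10 genes were above 0, beside 48.2% of all genes, with a median log2 fold change of −0.01. The edgeR test called 0 of 10 (background 0.0%), as did DESeq2 and limma-voom, and 0 of 10 had an unadjusted p under 0.05, where 2.54% of all genes did. The authors' deposited table listed 25 genes under an adjusted p of 0.05 in this comparison, none of them a member. In that table the unadjusted p of Olig1, by the authors' own test, was 0.044. With cKO 2 left out of the fit, 1 of the 10 genes had an edgeR unadjusted p under 0.05 in Hetero against Loxp. That p was 0.045, and none of the 10 was called. The share of all genes under 0.05 is not given here for either test, and both rest on the same Hetero and Loxp libraries. Hetero 2 was the lower Hetero library for 9 of 10 genes, Cspg4 being the exception. Without Hetero 2 the count above 0 was 8 of 10 (median 0.07), and without Hetero 1 it was 1 of 10 (median −0.16), with the spread of the lone Hetero library taken from the other groups. Without Loxp 2 it was 7 of 10 (median 0.07). Hetero 2 was the library with the choroid plexus markers, and their part in these values was not tested.

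In cKO against Hetero, 8 of 10 genes were above 0, beside 52.5% of all genes, with a median of 0.14, and edgeR called 0 of 10 (background 0.0%; 0 of 10 at an unadjusted p under 0.05, where 1.74% of all genes were). The cKO and Hetero libraries overlapped for all 10, and lacked overlap for 9.43% of all genes. DESeq2 and limma-voom also called 0 of 10 in cKO against Hetero. Without Hetero 2, 6 of 10 were above 0 (median 0.03). Without cKO 2 all 10 were below 0, beside 50.2% of all genes. Here too the library left out was the highest for all 10, so shares of all genes are no like measure. In that fit C1ql1 had the largest difference, −0.33 (SE 0.147, edgeR unadjusted p = 0.043, adjusted p = 1). It was the 1 gene of 10 that was lower at an unadjusted p under 0.05, where 1.51% of all genes were. The 3 comparisons share libraries, and their values are given side by side only.

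**Figure D2:**
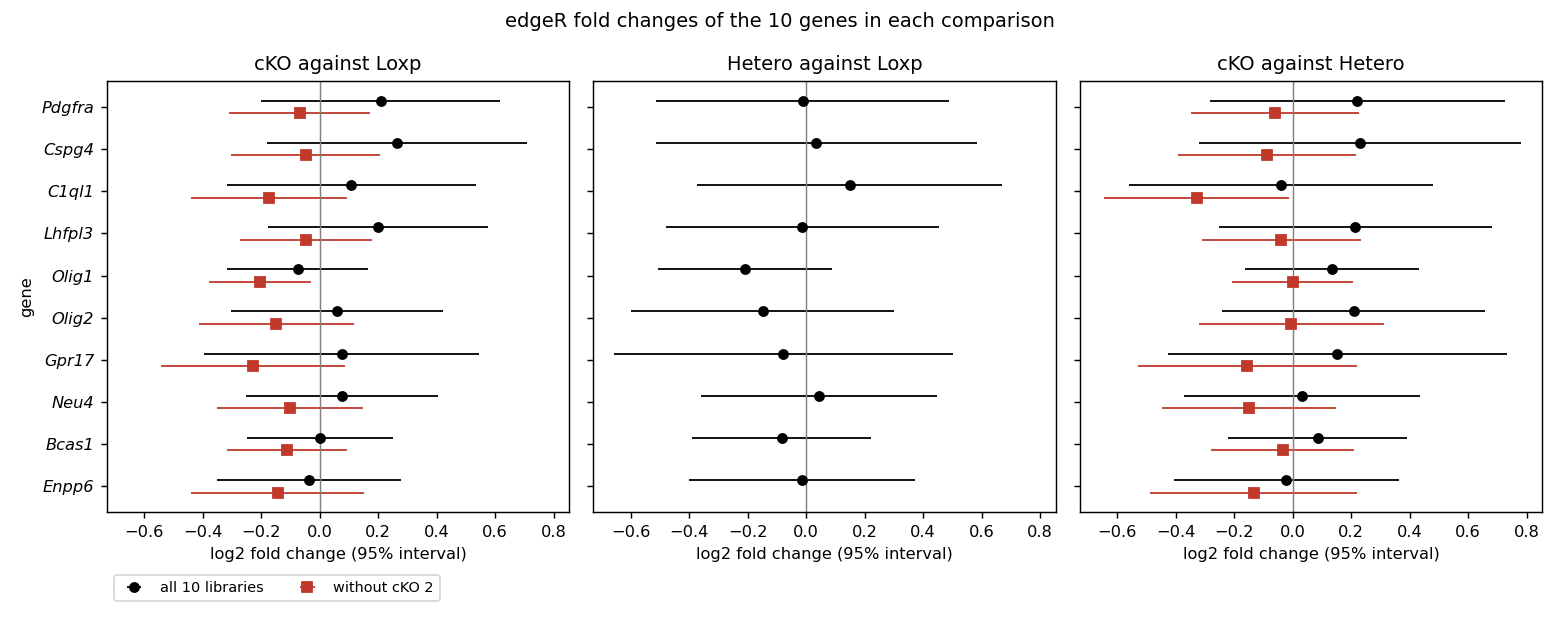
log2 fold changes of the 10 genes (horizontal axis, bars are 95% intervals from edgeR) for cKO and Hetero each set against Loxp and for cKO set against Hetero, with all 10 libraries (circles) and without cKO 2 (squares, shown for the contrasts that use it). With all libraries every interval crosses 0; without cKO 2 all squares lie left of 0, and the intervals of Olig1 in cKO against Loxp and C1ql1 in cKO against Hetero end just short of it.

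By replicate number, cKO minus Loxp was above 0 for 6 of 10 genes between the libraries numbered 1 (median 0.11 on the log2 scale), for 10 of 10 between those numbered 2 (0.41), for 3 of 10 between those numbered 3 (−0.12) and for 3 of 10 between those numbered 4 (−0.13). The numbers come from the labels and did not pass the check for pairing given under processing. Loxp 2 was the highest Loxp library for 8 of 10 genes, all but Olig1 and Olig2, for which the library labelled Loxp 4 was highest. As the mean log2 CPM of the 10 genes minus the Loxp mean, cKO 1 to 4 were at −0.10, 0.60, −0.13 and −0.14, Hetero 1 and 2 at 0.09 and −0.15, and Loxp 1 to 4 at −0.16, 0.19, −0.02 and −0.02. So cKO 2 and Loxp 2 were the highest libraries of their groups, and Hetero 2 was the lower of the Hetero libraries.

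With all 10 libraries the 10 genes rose and fell together, and less so without cKO 2. Over the 45 pairs of genes, Pearson's r of log2 CPM in the 10 libraries, with group means taken off, was 0.46 to 0.97 with a median of 0.80, and above 0 for all 45. Without cKO 2 it was −0.58 to 0.90 with a median of 0.45, and above 0 for 36 pairs. These are descriptions over 10 libraries that share 1 extreme library. The r over pairs of all genes was not computed, so whether these r are higher than usual here is not known. The SD of log2 CPM within groups was largest for Gpr17 at 0.39, against a median of 0.12 for genes of like level, which placed Gpr17 above 99.0% of them. Without cKO 2 its SD was 0.25, above 97.4% of such genes. For Lhfpl3 the SD was 0.29 with all libraries and 0.12 without cKO 2, above 89.6% and 32.6% of like genes. The counting error at the lowest count of each gene was 1.71% to 5.87%.

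**Figure D3:**
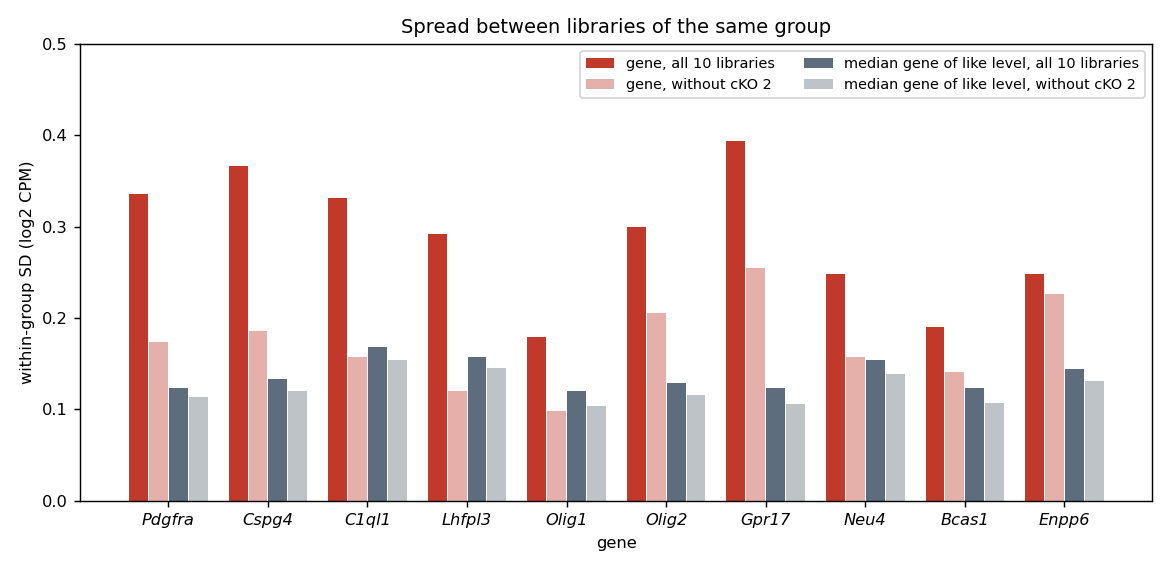
Within-group SD of log2 CPM (vertical axis, from 0) of each of the 10 genes and of the median gene of like level (mean log2 CPM within 0.5), each with all 10 libraries and without cKO 2. All 10 genes exceed the median of like genes with all libraries; Gpr17 is the widest at 0.39, and without cKO 2 Lhfpl3 and Olig1 lie under the median of like genes.

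Among 13295 genes searched, those most like each member over the 10 libraries had r of 0.96 to 0.99. Each was picked as the highest of many correlations over few libraries, so a high r follows from the search itself. The r that such a search would give by chance was not computed, so the genes named describe these libraries only. Pdgfra was most like Ccnjl (0.98) and then Slc1a3 (0.98), a glutamate transporter gene of astrocytes, and Cspg4 was most like Fndc1 and S1pr3 (0.98 each). C1ql1 was most like Smoc1 (0.99), Olig1 like Sema6c (0.99), Gpr17 like Ly75 (0.99) and Neu4 like Col4a1 (0.99), a collagen of the vascular basement membrane. Lhfpl3 was most like Ralgds (0.98), Olig2 like Dhx57 (0.98), Bcas1 like Zkscan17 (0.98) and Enpp6 like Myo6 (0.96). Without cKO 2 these r were 0.86 to 0.99, in libraries that had also served to pick the genes, so they are no separate check. Among the 100 genes most like each member, 0 to 2 of the other 9 members were found, such as Cspg4 and Neu4 for Pdgfra and Gpr17 for Neu4. Without cKO 2, Gpr17, Neu4 and Bcas1 had 1 each, and the other 7, Pdgfra included, had 0.

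Other genes of the lineage were read from lists, each as mean log2 CPM minus the Loxp mean. In cKO 2 the 4 precursor-stage members stood at 0.82, Olig1 and Olig2 at 0.42, and the 4 committed-stage members at 0.46. The 16 other precursor genes stood at 0.38 in cKO 2 and were highest there in 11 of 16, and the 11 other committed-stage genes tested stood at 0.41 and were highest there in 8. Sox10, a lineage factor named here after its values were seen, was at 84.2, 124, 72.5 and 85.5 CPM in cKO, 99.3 and 67.4 CPM in Hetero, and 84.8, 72.04, 94.99 and 90.1 CPM in Loxp. In cKO against Loxp 12 of the 16 and 10 of the 11 had a fold change above 0, beside 50.1% of all genes, with medians of 0.06 and 0.08 on the log2 scale against 0.00033 for all genes, and edgeR called none. Without cKO 2, by mean log2 CPM, 5 of the 16 (median −0.13) and 4 of the 11 (median −0.05) were above 0. Not every gene of these lists followed, since Megf11 was at 24.4 CPM in cKO 2, inside its range of 23.7 to 32.6 CPM elsewhere.

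Myelin genes went the other way in the same library. In cKO 2 the 20 myelin genes stood at −0.91 and were lowest there in 15 of 20, while the other cKO libraries stood at −0.11, −0.13 and 0.11, the Hetero libraries at 0.02 and −0.48, and the Loxp libraries at −0.07, −0.23, 0.11 and 0.19. Mog, an outer myelin protein, was at 41.9 CPM in cKO 2, against 66.7 to 110 CPM in the other 9 libraries. Not every gene of the list followed. Mbp was at 3281 CPM in cKO 2 and lower, at 3004 CPM, in Hetero 2. Car2 was at 84.5 CPM in cKO 2, against a Loxp mean of 83.8 CPM. Fold changes of all 20 myelin genes were below 0 in cKO against Loxp, where 50.1% of all genes were above 0. Their median was −0.18 on the log2 scale, edgeR called 0 of 20, and none had an unadjusted p under 0.05. In Hetero against Loxp all 20 were below 0 as well (median −0.20), where 48.2% of all genes were above 0, and edgeR called none. Over the 20 genes, the median difference in mean log2 CPM, cKO minus Loxp, was −0.20 with all libraries and −0.02 without cKO 2, when 9 of the 20 were above 0. Hetero 2 was low in both myelin genes and members, and cKO 2 low in myelin genes and high in members.

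**Figure D4:**
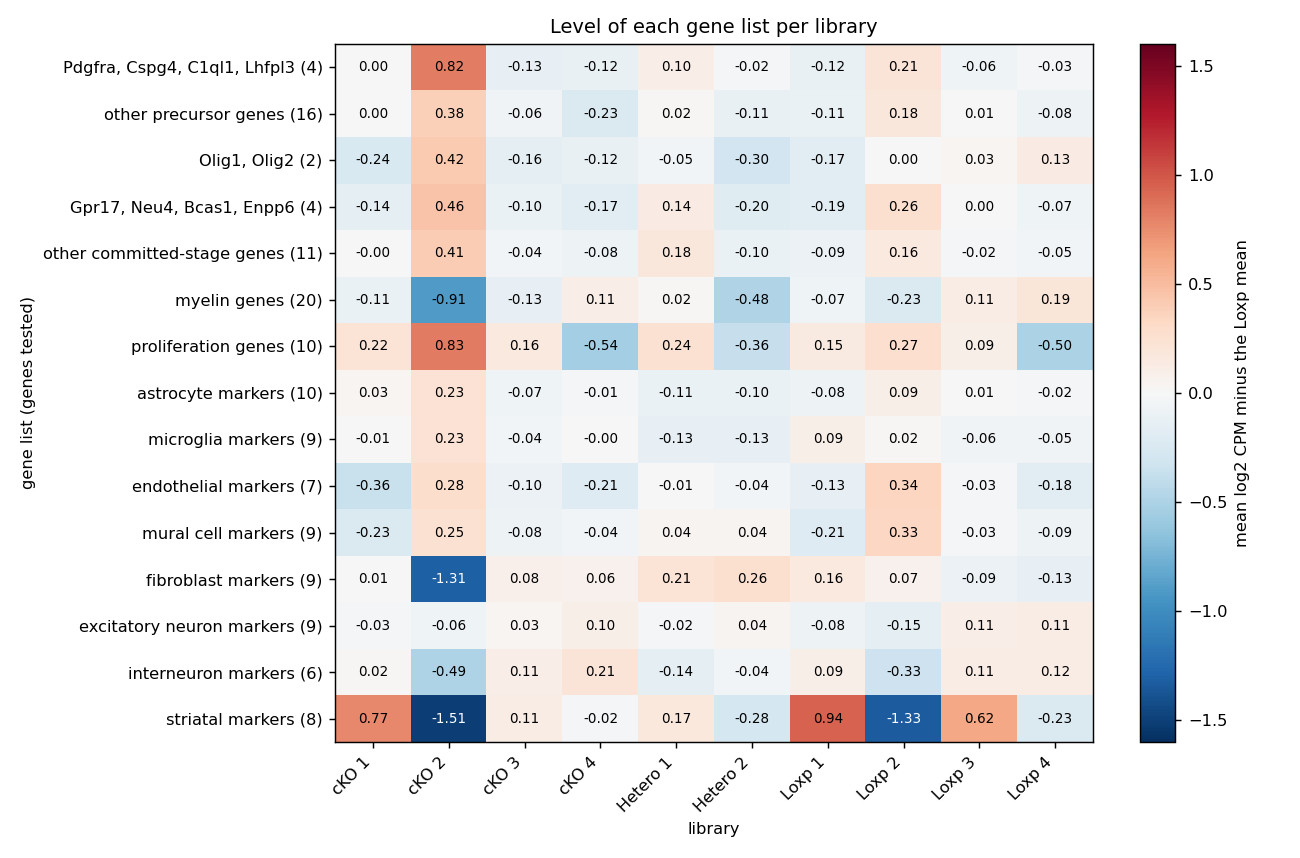
Mean log2 CPM of each gene list (rows, number of tested genes in brackets) minus its Loxp mean in every cKO, Hetero and Loxp library (columns); red is higher and blue lower than Loxp. The cKO 2 column is red for the precursor, Olig1 and Olig2, committed and proliferation rows, and paler red for the astrocyte, microglia, endothelial and mural rows. It is blue for the myelin, fibroblast, interneuron and striatal rows.

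No gene of the growth signals to precursors was called. Of the 5 genes of the platelet-derived growth factor list, 2 were above 0 and 3 below in cKO against Loxp, and edgeR called 0. Pdgfa, which encodes a ligand of the Pdgfra receptor, was at 33.9, 47.2, 41.6 and 37.5 CPM in cKO, 41.2 and 42.9 CPM in Hetero, and 47.6, 43.9, 44.7 and 40.2 CPM in Loxp. Of 18 genes of other signals on precursors, 10 were above 0 and 8 below, none was called by edgeR, and 1, the receptor gene Bmpr1a, had an unadjusted p under 0.05 (log2 fold change −0.18, SE 0.077, edgeR unadjusted p = 0.038). Proliferation genes were low in level and followed cKO 2, which stood at 0.83, with 6 of 10 highest there, against 0.22, 0.16 and −0.54 in the other cKO libraries, 0.24 and −0.36 in Hetero, and 0.15, 0.27, 0.09 and −0.50 in Loxp. Cdk1, the mitotic kinase, was at 0.91, 1.38, 0.86 and 0.67 CPM in cKO, 0.87 and 0.45 CPM in Hetero, and 0.48, 0.67, 0.79 and 0.24 CPM in Loxp.

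Markers of other cell types moved in cKO 2 as well. The 9 fibroblast genes, which include genes of Pdgfra-bearing cells of the meninges, were all lowest there, with a sum of 74.9 CPM, against up to 158 CPM in the other cKO libraries, 177 to 205 CPM in Hetero and 126 to 156 CPM in Loxp. Dcn, decorin of fibroblasts, was at 6.23, 1.47, 6.15 and 5.85 CPM in cKO, 8.22 and 6.79 CPM in Hetero, and 7.32, 6.98, 4.91 and 4.67 CPM in Loxp. Striatal markers stood at −1.51 in cKO 2 and −1.33 in Loxp 2, the same libraries in which Gpr17 and Neu4 were highest, and between −0.28 and 0.94 in the other 8. The striatal gene Adora2a was at 44.7, 5.18, 24.5 and 19.7 CPM in cKO, 28.8 and 15.4 CPM in Hetero, and 48.8, 6.41, 42.9 and 17.1 CPM in Loxp. Interneuron markers stood at −0.49 in cKO 2 and −0.33 in Loxp 2, and endothelial markers at 0.28 and 0.34. Astrocyte and microglia markers stood at 0.23 each in cKO 2, and excitatory neuron markers at −0.06. No tested marker of these lists was at 0 in a library; Otx2 and Kcne2 of the choroid plexus list and Tagln of the mural list failed the low-count filter. The part of these other markers in the values of the 10 genes was not tested.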

How the data were processed

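Total RNA of mouse S1BF at postnatal day 17 was sequenced in 10 libraries (4 cKO, 2 Hetero, 4 Loxp), with 3 µg of RNA per library and the NEBNext Ultra kit, per the labels' protocols. The deposited read counts per gene rest on mm10 and featureCounts 1.5.0-p3 as named in the submitters' processing notes; the aligner, annotation and strand setting were not given in the sources used here. The authors also deposited FPKM per gene and library, used only for levels between genes, and, per the file headers, their own test columns: a log2 fold change, a p-value and an adjusted one.

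Counts were tested with edgeR 4.0.16 (R 4.3.3): TMM factors, filterByExpr at defaults, glmQLFit and glmQLFTest with a mean per group over all 10 libraries, and Benjamini-Hochberg adjustment over the 18455 genes tested of 32197 with a count. The common biological coefficient of variation was 14.9%. Levels are CPM on TMM-scaled totals; log2 CPM used a prior count of 2. Alternatives were DESeq2 1.42.0, limma-voom 3.58.1, other scalings and filters, a fit of just the groups compared, a block on replicate number, and each library left out. Replicates were checked for duplicates: the chi-square per gene was 5.10 to 43.0 over 45 pairs, where 1 library deposited again would give about 1. The replicate numbers were taken as pairs only if every same-numbered correlation passed 0.1, which was not met. Coordinates are from GENCODE M21 (GRCm38), which holds 52489 of the 52636 gene IDs by ID.

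The 10 genes and the lists were chosen with earlier results of these data known. All 10 genes are named; of other lists, up to 3 genes by smallest edgeR p in cKO against Loxp and defining markers; and the 3 genes most like each member, of which the nearest are printed. Proteins were not used here. Of the lists, 11 of 12 committed-stage, 9 of 10 mural and 6 of 8 choroid plexus genes were tested.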

Additional observations from a re-analysis of the deposited data

Results flagged for a closer look

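Gaps that set 1 library of 4 apart from the rest of its group were found in 6 of the 20 groups of 4 libraries tested for the 10 genes. The gap from that library to the next was compared with the whole range of the group by Dixon's test, which chance passes in about 1 in 20 separate groups. The 20 groups here are not separate, since every gene was read in the same libraries. All 6 gaps came from cKO 2 or Loxp 2, so their count describes these libraries and is no test. In the cKO group, 7.15% of all genes were marked in this way, and 2.86% because cKO 2 was high. In the Loxp group it was 5.69% of all genes, and 0.813% because Loxp 2 was high. In cKO 2, Cspg4 at 60.6 CPM, C1ql1 at 22.5 CPM, Olig2 at 69.7 CPM and Neu4 at 26.6 CPM stood apart, with gaps of 0.854, 0.885, 0.837 and 0.894 of the group's range. In Loxp 2, Pdgfra at 76.9 CPM and Neu4 at 23.1 CPM stood apart, with gaps of 0.928 and 0.831 of the range.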

How the results depend on the processing

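Every alternative left the number of the 10 genes called at 0 in all 3 comparisons. The number of all genes called by edgeR was 0 in each comparison and moved to 32 in cKO against Loxp, 68 in Hetero against Loxp and 39 in cKO against Hetero with no low-count filter, which tests more genes. DESeq2 called 2, 17 and 3. Leaving out 1 library at a time called 0 to 1 gene in cKO against Loxp (1 without cKO 2), 0 to 15 in Hetero against Loxp and 0 to 14 in cKO against Hetero (both highest without Hetero 1). Directions turned when 1 library was left out for most of the 10 genes. In cKO against Loxp the range was −0.069 to 0.33 for Pdgfra, −0.048 to 0.39 for Cspg4, −0.17 to 0.22 for C1ql1 and −0.048 to 0.32 for Lhfpl3 (log2). It was −0.15 to 0.14 for Olig2, −0.23 to 0.25 for Gpr17, −0.10 to 0.19 for Neu4, −0.11 to 0.055 for Bcas1 and −0.14 to 0.032 for Enpp6. In Hetero against Loxp the range was −0.099 to 0.10 for Pdgfra, −0.061 to 0.13 for Cspg4, −0.042 to 0.32 for C1ql1 and −0.063 to 0.030 for Lhfpl3 (log2). It was −0.31 to 0.0048 for Olig2, −0.23 to 0.098 for Gpr17, −0.033 to 0.16 for Neu4, −0.28 to 0.092 for Bcas1 and −0.30 to 0.23 for Enpp6. In cKO against Hetero the range was −0.062 to 0.33 for Pdgfra, −0.087 to 0.35 for Cspg4, −0.33 to 0.15 for C1ql1, −0.040 to 0.33 for Lhfpl3 and −0.00052 to 0.23 for Olig1 (log2). It was −0.0047 to 0.38 for Olig2, −0.16 to 0.31 for Gpr17, −0.15 to 0.11 for Neu4, −0.089 to 0.28 for Bcas1 and −0.26 to 0.27 for Enpp6. The lowest values in cKO against Loxp all came without cKO 2. With library totals alone, Hetero against Loxp gave 0.0014 for Pdgfra, 0.0024 for Lhfpl3 and 0.0015 for Enpp6, which were below 0 with TMM. With limma-voom Bcas1 was at −0.0070 in cKO against Loxp. Correlations of the same-numbered cKO and Loxp libraries were 0.04 to 0.32, so not every pair passed 0.1. Still, all 4 cKO libraries were closest to the Loxp library of their own number, and all 4 Loxp libraries to the cKO library of theirs. That is a hint from the data and not from the design. With the replicate number as a block, 1 gene was called in cKO against Loxp and 1 in Hetero against Loxp, neither a member. In that blocked fit Bcas1 was at −0.0040 in cKO against Loxp; Cspg4 at −0.099, C1ql1 at −0.032 and Neu4 at −0.071 in Hetero against Loxp; and C1ql1 at 0.11 and Enpp6 at 0.028 in cKO against Hetero. Over the list, the blocked fit put 7 of 10 genes above 0 in cKO against Loxp (median 0.06), where the main fit put 8. It put 0 of 10 above 0 in Hetero against Loxp (median −0.12), where the main fit put 3. In cKO against Hetero it put 10 of 10 above 0 (median 0.17), where the main fit put 8. The share of all genes above 0 in the blocked fit is not given here. The cause of these turns was not tested. The lowest count of a member in any of the 10 libraries was 290.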
